A study of Mus musculus with 6 samples.

Results

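Integrins are adhesion receptors that span the plasma membrane and hold cells to the extracellular matrix. Each receptor is 1 α chain paired with 1 β chain. The pair decides which ligand is bound, and the cytoplasmic tail of the β chain is anchored to actin through adaptors such as talin. Fibroblasts use integrins to grip and remodel the matrix they make. The transcripts described here encode 10 integrin subunits, 7 α chains (Itga1, Itga3, Itga4, Itga5, Itga6, Itga11 and Itgav) and 3 β chains (Itgb1, Itgb3 and Itgb5). They were picked by gene symbol from 20275 coding genes in a table of 27794 RefSeq entries. For each symbol the entry with the highest average level was used, and only Itgb5 had more than 1 entry (2 entries). A further 16 integrin subunits are in the table.

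The cells were wildtype mouse embryonic fibroblasts (MEFs), primary cells of strain C57BL/6x 129, taken from littermate embryos of day 13.5 and passaged 4 times. TNFα, an inflammatory cytokine that activates NF-κB, was given at 20 ng/ml. RNA was sequenced from untreated MEFs and after 1.5, 6 and 24 hr of TNFα, and histone H3 trimethylated at lysine 4 (H3K4me3), a mark of active promoters, was profiled in untreated MEFs against input chromatin. The extract protocol given for the 24 hr library describes ChIP; its other labels name RNA, and it was taken as RNA-seq. Every group was 1 library, so no difference between times could be tested, and no p-value or error between replicates is given. The values are RPKM, that is reads per kilobase of transcript scaled to the mapped reads of the library, and so are normalised for transcript length. The 2 deposited columns of a library (R1 and R2) were averaged and divided by 1 common factor of 85.6, which changes levels but not ratios. The table holds no reads, so the depth behind a value is unknown and low values carry an unknown counting error. What distinguishes the columns is not stated, so they were not used as replicates. Their log2 ratios to the untreated library differed by at most 0.46 in any of the 10 genes.

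Some facts of the whole table touch the values below. Relative to the untreated library, the summed RPKM was 1.19, 0.563 and 0.964 after 1.5, 6 and 24 hr. The median log2 ratio to untreated over 6571 coding genes with an average RPKM above 1 was 0.45, -0.74 and 0.11 at the 3 times. The ratio also moved with the GC content of the transcript. The genes were split into 10 equal classes by GC content. The median was 1.37 in the class poorest in GC (34.4 to 44.4%) and -0.58 in the richest (59.1 to 71.7%) after 1.5 hr. These medians were 0.94 and -0.80 after 24 hr, and -0.14 and -0.86 after 6 hr. For this reason ratios of the subunits, ligands and adaptors are given as deposited and GC-centred. GC-centred means after subtraction of the median of genes with like GC content (20 bins, 6446 genes with a known GC content). The part of GC content in the results was not tested. The 8 control targets of TNFα signalling were all at least 2-fold higher at the 3 times, among them Nfkbia, the inhibitor of NF-κB, with log2 ratios of 4.50, 3.06 and 4.18.

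Untreated MEFs expressed the subunits at levels that ranged from 0.179 to 20.4 RPKM. Itga5, whose chain forms the main fibronectin receptor with the β1 chain, was the highest at 20.4 RPKM. It was followed by Itgb5, a partner of αv that binds vitronectin, at 13.5 RPKM and by Itgb1, the shared partner of most α chains listed here, at 11.2 RPKM. Itga11, a collagen receptor chain of fibroblasts, had 7.04 RPKM, and Itgb3, another partner of αv, had 3.43 RPKM. Itgav, which encodes αv and so binds proteins with an RGD motif, had 0.808 RPKM. The remaining α chains were low, with 0.416 for Itga3 and 0.269 for Itga6 (laminin receptor chains), 0.246 for Itga4 (which binds fibronectin and VCAM-1) and 0.179 RPKM for Itga1 (a collagen receptor chain). With 1 library, no neighbours in this order can be said to differ. In the untreated library, Itga5 was higher than 97.4% of coding genes and Itga1 higher than 46.5%. Over the 4 libraries, 6 of the 10 subunits had an average RPKM above 1 (Itga5, Itga11, Itgav, Itgb1, Itgb3 and Itgb5), and the other 4 were described without being part of the background counts. Of the 16 other integrin subunits, only Itga7, a laminin receptor chain known from muscle, had an average RPKM above 1.

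**Figure D1:**
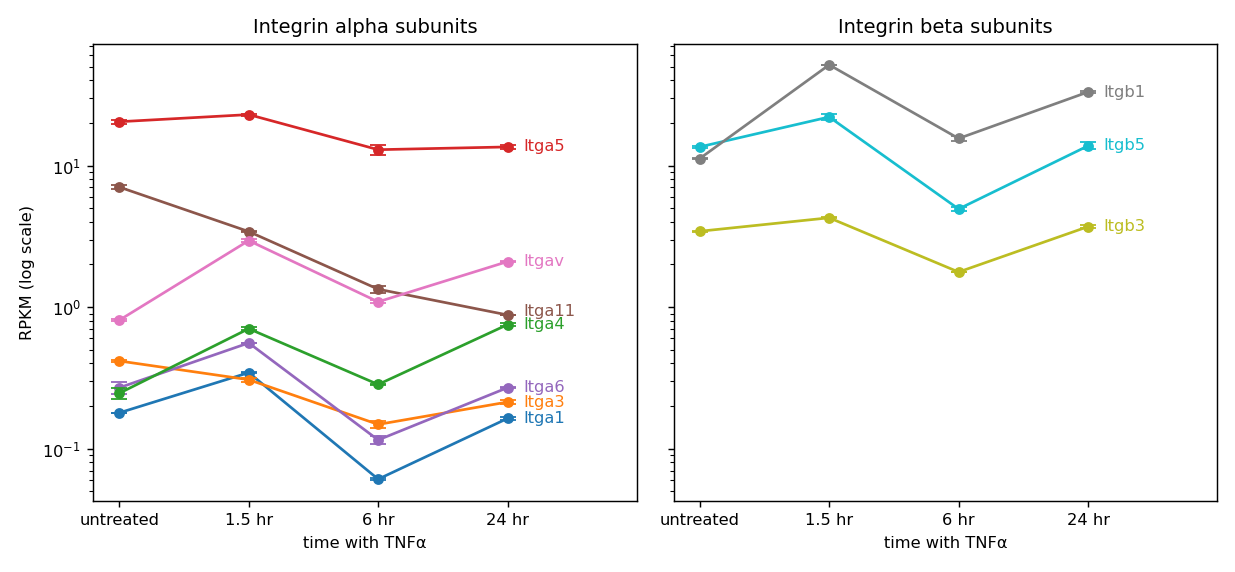
RPKM (log axis) of 7 α subunits (left) and 3 β subunits (right) in the untreated library and after 1.5, 6 and 24 hr of TNFα, 1 library per time. Points are the mean of the columns R1 and R2 and short bars are the columns themselves. Itgb1 went from 11.2 to 51.5 RPKM at 1.5 hr, and Itga11 was lower in every treated library, with 0.879 RPKM at 24 hr.

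H3K4me3 marked the start of 7 of the 10 genes in untreated MEFs, where a peak within 1 kb of an annotated start was counted. The share over all 19724 coding genes was 54.2%, and it was 91.3% of genes with an untreated RPKM above 1 and 75.0% of those between 0.1 and 1. Each of the 5 subunits above 1 RPKM had a peak, and so had Itgav and Itga6, which were lower. Itga5 (mm9 chr15:103174720-103197194, minus strand) had the most tags, 2569 over 7525 bp, with a 71.4-fold enrichment over input. Itgav (chr2:83564554-83647073, plus strand) followed with 2126 tags over 7868 bp and 26.6-fold enrichment. Its peak was the longest of the 7 although its transcript was the sixth in level. Itgb5 (chr16:33829751-33949239, plus strand) had 2043 tags over 6965 bp and the highest enrichment, 76.0-fold. Itgb1 (chr8:131209554-131257100, plus strand) had 1834 tags over 4961 bp and 43.4-fold enrichment. The remaining 3 genes had fewer tags. Itgb3 had 961 tags over 5221 bp at 66.4-fold, a longer and more enriched peak than that of Itgb1, Itga6 889 tags at 21.7-fold and Itga11 (chr9:62525633-62631789, plus strand) 674 tags at 22.5-fold, against medians of 1049 tags and 45.5-fold over all 11157 peaks. Itga11 thus had the fewest tags of the 7 while its untreated level was the fourth highest. No peak was listed at the starts of Itga1, Itga3 and Itga4, and the nearest ones were 10364, 26660 and 172671 bp away. The peak inside the span of Itga1 (chr13:115878364-115881775) lies at the start of Pelo, a gene nested in that locus. Every listed peak was at least 20-fold enriched, so that a gene without a peak may carry a weaker mark. Among the 16 other integrin subunits, 3 had a peak at the start.

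**Figure D2:**
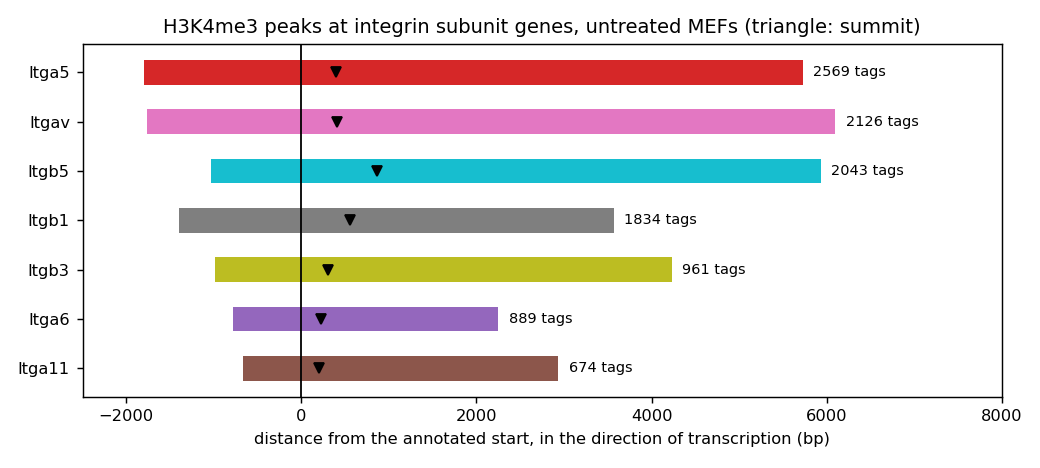
Extent of the H3K4me3 peak at 7 integrin subunit genes in untreated MEFs (1 library), in bp from the annotated start in the direction of transcription, ordered by tags. Triangles are the summits. All 7 peaks span the start and reach further downstream than upstream, with summits between 196 and 868 bp downstream.

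Promoter sequences were found for 8 of the 10 genes in RefSeq (GRCm38.p6), and each matched mm9 at 1 place. Itga3 had a second promoter, inside the gene. Motifs below were counted per gene for the members and per promoter for the background. They are shown here for Itgb1, Itgav and Itga4, the subunits at least 2-fold higher at both 1.5 and 24 hr, and for Itga11, which was lower at every time. Each line gives the 250 bases before the RefSeq start, read 5′ to 3′ on the strand of the gene, and capitals mark a GC box (GGGCGG on either strand). The windows are chr8:131209304-131209553 for Itgb1, chr2:83564304-83564553 for Itgav, chr2:79095333-79095582 for Itga4 and chr9:62525412-62525661 for Itga11, all on the plus strand of mm9.
Itgb1: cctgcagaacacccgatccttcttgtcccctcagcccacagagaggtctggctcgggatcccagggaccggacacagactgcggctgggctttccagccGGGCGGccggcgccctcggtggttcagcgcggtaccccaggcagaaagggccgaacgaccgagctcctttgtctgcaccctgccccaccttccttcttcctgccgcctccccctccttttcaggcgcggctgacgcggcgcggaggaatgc
Itgav: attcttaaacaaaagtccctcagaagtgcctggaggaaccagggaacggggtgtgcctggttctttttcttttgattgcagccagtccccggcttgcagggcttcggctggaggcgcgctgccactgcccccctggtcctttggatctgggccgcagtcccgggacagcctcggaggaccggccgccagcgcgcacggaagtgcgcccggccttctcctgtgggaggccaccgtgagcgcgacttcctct
Itga4: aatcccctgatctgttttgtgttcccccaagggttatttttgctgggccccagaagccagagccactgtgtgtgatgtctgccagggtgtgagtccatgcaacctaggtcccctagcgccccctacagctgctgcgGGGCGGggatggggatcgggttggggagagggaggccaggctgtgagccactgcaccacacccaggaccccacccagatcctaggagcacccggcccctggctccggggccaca
Itga11: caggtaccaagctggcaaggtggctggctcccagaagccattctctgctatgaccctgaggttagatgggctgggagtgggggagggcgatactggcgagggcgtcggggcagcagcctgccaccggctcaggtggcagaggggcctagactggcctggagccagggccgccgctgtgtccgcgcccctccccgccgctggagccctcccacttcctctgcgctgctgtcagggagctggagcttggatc
Within the window from 250 bases before to 50 after the start, the GC box, the site of Sp factors, was found in 6 of 8 genes, against 48.9% of 17439 coding promoters. In Itgav its only match lay 8 bases after the start and so outside the line above, and Itga11 and Itga1 had none. An NF-κB motif was in 0 of 8 genes (5.02% of all promoters). An AP-1 motif (TGANTCA, either strand) was in Itga3 only, in its second promoter (7.09%). No member held a TATA box (TATAAA, either strand; 12.2%) or a CArG box (1.45%), the element bound by serum response factor. These are matches of letters in a short window. The CpG dinucleotides in that window numbered 27 in Itgb1, 24 in Itgav, 16 in Itga11 and 10 in Itga4, with a median of 14 over all promoters. Itga4, without an H3K4me3 peak, had the fewest CpG of the 4. Of the other genes without a peak, Itga1 had 12 and Itga3 had 24, with 5 in its second promoter. Itga5 and Itgb5, each with a peak, had 13 and 20.

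The subunits differed in direction at each time. Whether other sets of coding genes differ as much was not tested. At 1.5 hr of TNFα, 4 of 10 were at least 2-fold higher (29.9% of coding genes were) and 1 was at least 2-fold lower (7.82%). At 6 hr, 0 of 10 were higher (1.73%) and 5 were lower (31.6%). At 24 hr, 3 were higher (16.8%) and 1 was lower (12.6%). Of the 6 subunits above 1 RPKM, 2, 0 and 2 were higher and 1, 2 and 1 were lower. The median log2 ratio of the 10 was 0.82, -1.09 and 0.01, beside 0.45, -0.74 and 0.11 for coding genes. After GC centring, 1 subunit was higher and 1 lower at 1.5 hr (10.7% and 10.6% of genes), 0 higher and 2 lower at 6 hr (4.93% and 2.59%), and 0 higher and 1 lower at 24 hr (10.3% and 8.98%). The GC-centred medians of the 10 were 0.10, -0.37 and -0.12. Over the 6 subunits above 1 RPKM, the level that the background genes also pass, the medians were 0.51, -0.81 and 0.07 as deposited and 0.51, 0.03 and 0.19 GC-centred, so the GC-centred direction at 6 and 24 hr turned when the 4 low subunits were left out. The members range in GC content from 41.3% (Itga4) to 57.9% (Itga3), and those higher at both 1.5 and 24 hr were among the 4 poorest in GC.

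**Figure D3:**
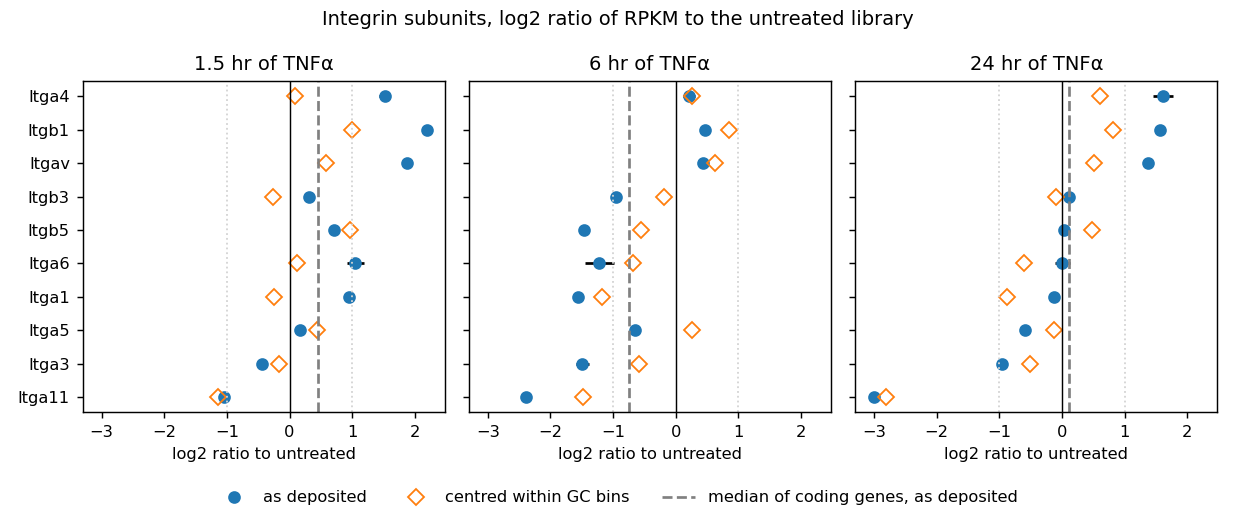
Log2 ratio of RPKM to the untreated library for 10 integrin subunits at 1.5, 6 and 24 hr of TNFα, ordered by the value at 24 hr. Filled points are the deposited values, short lines join the ratios of the columns R1 and R2, open diamonds are GC-centred, dashed lines are the median of coding genes and dotted lines mark 2-fold. Itga11 lay farthest to the left at each time, and the GC-centred values of Itgb1, Itgav and Itga4 were nearer to 0 at 1.5 and 24 hr.

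**Figure D4:**
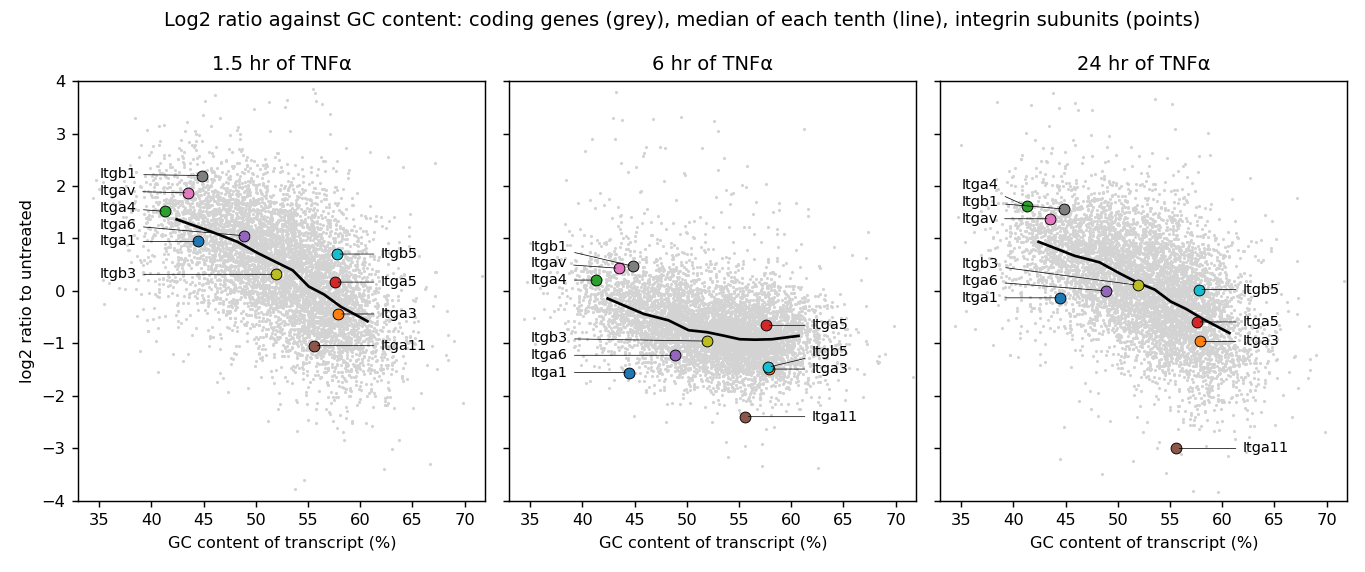
Log2 ratio to untreated against the GC content of the transcript (%) for coding genes with an average RPKM above 1 (grey), with the median of 10 equal classes of genes (line) and the 10 integrin subunits (coloured points), at 1.5, 6 and 24 hr. Genes beyond the range of the axis are not drawn. The line descends from 1.37 to -0.58 at 1.5 hr and from 0.94 to -0.80 at 24 hr; Itgb1 lay above it and Itga11 below it at all 3 times.

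Itgb1 had the largest increase at 1.5 hr. Its level was 11.2 RPKM untreated and 51.5, 15.5 and 33.1 RPKM after 1.5, 6 and 24 hr, which made it the highest subunit in all 3 treated libraries. The log2 ratios were 2.20 (4.59-fold), 0.47 and 1.56. GC-centred they were 1.00, 0.85 and 0.82, and in its bin of 321 genes Itgb1 exceeded 95.0%, 92.8% and 90.7% of the genes. Its direction was the same under each of 5 other scalings at each time. The β1 chain is the partner of α1, α3, α4, α5, α6 and α11, and also of αv.

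Itgav was the α chain with the largest increase at 1.5 hr. From 0.808 RPKM untreated it went to 2.95 after 1.5 hr, 1.09 after 6 hr and 2.10 after 24 hr. The log2 ratios were 1.87 (3.65-fold), 0.43 and 1.38, with 0.58, 0.62 and 0.51 after GC centring, above 76.6%, 84.4% and 75.7% of the genes of its bin. Itgav and Itgb1 have GC contents of 43.6 and 44.8% and kept a like proportion, since Itgb1 was 13.9 times Itgav untreated and 17.4, 14.3 and 15.8 times Itgav later.

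Itga4 had a course like that of Itgav at a lower level. It was at 0.246 RPKM untreated and at 0.704, 0.284 and 0.752 RPKM later, with log2 ratios of 1.52, 0.21 and 1.61. After GC centring the values were 0.09, 0.26 and 0.61. At 1.5 hr, then, Itga4 was above 55.4% of the genes of like GC content. Its ligand Vcam1, an adhesion molecule induced by TNFα, went from 0.539 RPKM to 11.5, 2.59 and 6.01.

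Itga11 was the subunit with the largest decrease and was lower in each later library than in the one before. The 4 libraries held 7.04 RPKM (untreated), 3.42 (1.5 hr), 1.34 (6 hr) and 0.879 (24 hr). The log2 ratios were -1.04, -2.40 and -3.00, so it was 8.01-fold lower at 24 hr. GC-centred they were -1.14, -1.48 and -2.81. At 24 hr, 0% of the 321 genes of its bin had a lower ratio, and 5.30% and 0.623% had one at 1.5 and 6 hr. Itga11 stayed past 2-fold under 5 of 5 other scalings at every time; at 1.5 hr the column R2 alone gave -0.99. Itga5 differs from it by 2.003 points of GC content, and in a ratio of the pair the scaling of libraries drops out. The Itga11 to Itga5 ratio was 0.345 untreated and 0.149, 0.103 and 0.0650 at the 3 times.

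The other collagen receptor chain, Itga1, was above its untreated level at 1.5 hr as deposited, unlike Itga11, but below 0 at all 3 times after GC centring, as Itga11 was. Its levels were 0.179 RPKM untreated and 0.344, 0.0608 and 0.163 RPKM later. The log2 ratio of 0.94 at 1.5 hr was -0.26 after GC centring, and at 6 hr the ratio was -1.56 as deposited and -1.18 GC-centred, with 2.17% of its bin lower. At 24 hr the ratio was -0.13 as deposited and -0.87 GC-centred, with 10.6% of its bin lower. Itgb1, with a GC content 0.397 points higher, was 62.6 times Itga1 untreated and 149.6, 255.3 and 202.4 times Itga1 at 1.5, 6 and 24 hr. The courses of this pair differed, at levels that also differ widely, and the counting error at the level of Itga1 is unknown. The part of GC content in this difference was not tested.

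The laminin receptor chains were low in all libraries. Itga3 had 0.416 RPKM untreated, 0.307 at 1.5 hr, 0.148 at 6 hr and 0.213 at 24 hr, below the untreated level each time, and its GC-centred log2 ratios were -0.17, -0.58 and -0.51. Itga6 had 0.269, 0.558, 0.115 and 0.270 RPKM. The log2 ratios of 1.05 after 1.5 hr and -1.23 after 6 hr became 0.11 and -0.68 after GC centring, and it was also the gene in which R1 and R2 differed most. Lama5, which encodes a laminin chain of basement membranes, went from 5.63 RPKM to 2.03, 4.60 and 1.34. Its log2 ratios were -1.47, -0.29 and -2.07 as deposited and -1.06, 0.55 and -1.44 GC-centred.

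Itga5 stayed within 2-fold of its untreated level at all 3 times. It had 20.4 RPKM untreated, 22.9 after 1.5 hr, 12.9 after 6 hr and 13.5 after 24 hr, at most 1.58-fold from the untreated level. Its log2 ratio was 0.17 at 1.5 hr, a direction kept by 1 of 5 other scalings (0.43 GC-centred, and down to -0.29 in the others), and -0.66 at 6 hr, where all 5 other scalings lay above 0 (0.08 to 0.25). At 24 hr the ratio was -0.59 as deposited and -0.13 GC-centred. Its ligand fibronectin, Fn1, was at 114.3 RPKM untreated and 173.1, 54.8 and 85.2 later. The log2 ratios of Fn1 were 0.60, -1.06 and -0.42 as deposited and 0.16, -0.19 and -0.49 GC-centred.

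Itgb5 and Itgb3, both partners of αv, were less than 2-fold above the untreated level at 1.5 hr as deposited. Itgb5 had 13.5 RPKM untreated, 22.0 at 1.5 hr, 4.93 at 6 hr and 13.8 at 24 hr. It was 2.75-fold lower at 6 hr (log2 ratio -1.46, GC-centred -0.55). Its log2 ratios at 1.5 and 24 hr were 0.70 and 0.02 as deposited and 0.97 and 0.48 after GC centring, above 83.5% and 74.5% of its bin, so that Itgb5 and Itgb1 (1.00) were alike in GC-centred value at 1.5 hr. Itgb3 had 3.43, 4.27, 1.77 and 3.70 RPKM. Its log2 ratios of 0.32, -0.96 and 0.11 became -0.27, -0.19 and -0.10 after GC centring, and its direction at 1.5 hr was kept by 1 of 5 scalings. Itgb5 and Itga5 have GC contents within 0.187 points of each other, and the Itgb5 to Itga5 ratio was 0.664 untreated and then 0.962, 0.381 and 1.02.

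Shares within a library are free of its scaling and show how the set was composed. Among the 3 β chains, Itgb1 made up 39.8% of the summed RPKM untreated and 66.2%, 69.9% and 65.4% after TNFα. Itgb5 held 48.1% untreated and 28.3%, 22.2% and 27.3% after TNFα, and Itgb3 12.2% and then 5.49%, 7.96% and 7.32%. The leading β transcript was thus Itgb5 before TNFα and Itgb1 at all 3 times after, in shares that are not adjusted for GC content. The Itgb1 to Itgb5 ratio was 0.827 untreated and 2.33, 3.15 and 2.40 later, between 2 transcripts that differ by 12.9 points of GC content. As deposited, the log2 change of this ratio was 1.50, 1.93 and 1.54, but the GC-centred log2 ratio of Itgb1 exceeded that of Itgb5 by only 0.03 at 1.5 hr, by 1.40 at 6 hr and by 0.34 at 24 hr. Among the 7 α chains, Itga5 led throughout with 69.5%, 73.5%, 81.0% and 75.6%. Itga11 held 24.0% untreated and 11.0%, 8.37% and 4.91% later, while Itgav held 2.75% and then 9.46%, 6.82% and 11.7%. The second place among α chains was held by Itga11 up to 6 hr and by Itgav at 24 hr. Summed over chains, α transcripts were 29.4, 31.2, 16.0 and 17.9 RPKM and β transcripts 28.2, 77.8, 22.2 and 50.5 RPKM. The α to β ratio was 1.04 untreated and 0.401, 0.719 and 0.354 after TNFα. The α shares, the sums and this ratio are not adjusted for GC content either. That content is 57.5% in Itga5, 55.5% in Itga11, 43.6% in Itgav and 44.8% in Itgb1.

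**Figure D5:**
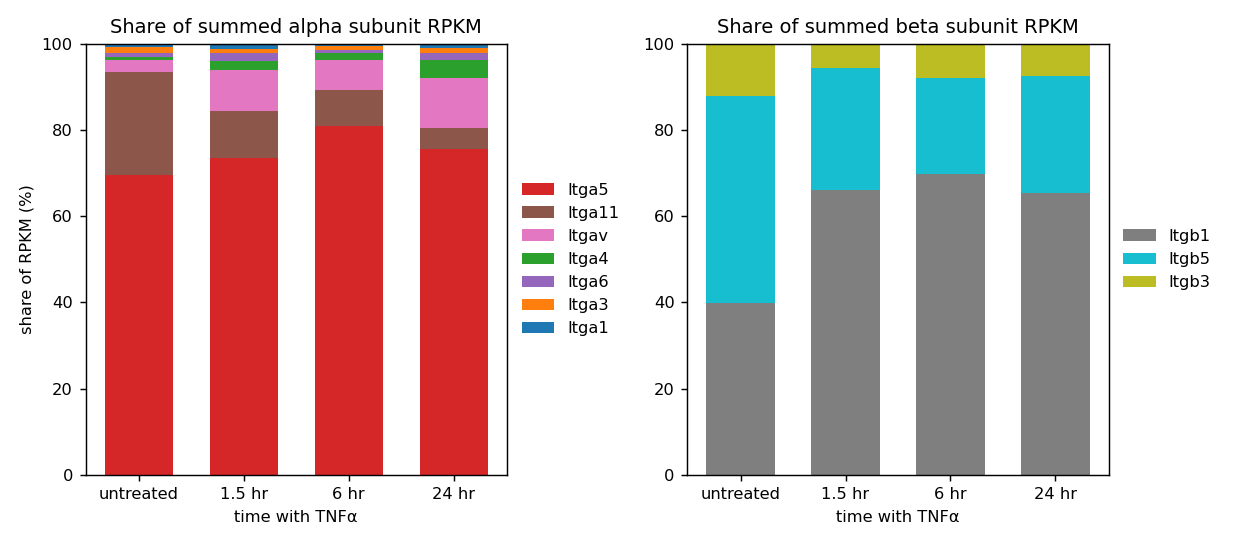
Share (%) of each gene in the summed RPKM of the 7 α subunits (left) and the 3 β subunits (right), in the untreated library and at 1.5, 6 and 24 hr of TNFα, 1 library per bar. The share of Itgb1 was 39.8% untreated and 65.4 to 69.9% after TNFα, and that of Itga11 was 24.0% untreated and 4.91% at 24 hr. No share is adjusted for GC content.

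The other genes of the adhesion machinery were counted in the same way. Of 26 integrin ligands, 22 had an average RPKM above 1, and 9, 2 and 4 of them were at least 2-fold higher and 1, 7 and 5 lower at 1.5, 6 and 24 hr, where the shares of all coding genes were 29.9%, 1.73% and 16.8% higher and 7.82%, 31.6% and 12.6% lower. After GC centring, 4 ligands were higher at each time and 2, 0 and 5 lower. The largest differences were in Vcam1, whose log2 ratio reached 4.42 after 1.5 hr, and in Icam1, the ligand of leukocyte integrins. Both are also among the control targets of TNFα signalling counted above. Icam1 had 0.667 RPKM untreated and 9.12, 2.63 and 2.54 later. GC-centred log2 ratios were 3.22, 2.64 and 2.74 for Vcam1 and 3.68, 2.89 and 2.12 for Icam1. Of 25 adaptors and regulators that link integrins to actin, 21 passed that level, and 9, 0 and 6 of them were higher and 0, 5 and 1 lower, to be read against the same shares of coding genes. After GC centring these were 5, 0 and 5 higher and 0 lower at each time, beside 10.7%, 4.93% and 10.3% of all coding genes higher and 10.6%, 2.59% and 8.98% lower. Actn1 and Actn4, the actin crosslinkers of focal adhesions, had log2 ratios of 1.76 and 1.34 at 1.5 hr and of 1.94 and 1.92 at 24 hr. GC-centred, these were 1.32 and 1.25 at 1.5 hr and 1.87 and 2.11 at 24 hr. Rsu1, a protein of the complex of integrin-linked kinase, had 2.55 RPKM untreated and 11.6, 4.06 and 11.6 later. Its log2 ratios were 2.19, 0.67 and 2.19 as deposited and 0.77, 0.73 and 1.18 GC-centred. Tln1, the talin that binds β tails, went the other way, from 25.2 RPKM to 16.9, 9.65 and 10.3 (GC-centred log2 ratios -0.46, -0.51 and -0.92). Itga7, from the 16 other subunits, had 3.40 RPKM untreated and 2.46, 1.26 and 1.53 later. The log2 ratios of Itga7 were -0.47, -1.43 and -1.15 as deposited and -0.20, -0.52 and -0.69 GC-centred.

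The cells were checked against markers. The 10 fibroblast markers were all detected, and their summed RPKM was 952.1 untreated and 884.8, 454.1 and 559.5 later. The largest untreated part was Col1a1, with 514.0 RPKM untreated and 277.8, 236.1 and 142.2 later, while Vim had 60.4 and then 202.4, 55.8 and 169.8. Of the 9 with an average RPKM above 1, 1, 0 and 1 were at least 2-fold higher and 0, 4 and 3 lower, to be read against the same shares of coding genes. After GC centring, 2, 0 and 2 of the 9 were higher and 0, 0 and 2 lower. The 6 endothelial markers were all below 0.1 RPKM untreated, as were 5 of 6 epithelial markers, with Krt18 at 0.480. Of 6 muscle markers, Des was at 3.71 RPKM and Myod1 at 0. Leukocyte markers were present. All 10 were above 0.1 RPKM untreated, and their sum was 68.1 RPKM untreated and 227.5, 47.7 and 116.2 RPKM later. Lyz2, which encodes lysozyme, held 38.7% of that sum untreated and 75.3%, 66.0% and 72.2% later. Without Lyz2 the sum was 41.7 RPKM untreated and 56.1, 16.2 and 32.3 RPKM later. Of the 6 leukocyte markers with an average RPKM above 1, 3 were at least 2-fold higher and 0 lower after 1.5 hr. After 6 hr, 1 was higher and 4 lower. After 24 hr, 2 were higher and 2 lower, with a median log2 ratio of -0.26. Of all coding genes, 29.9%, 1.73% and 16.8% were higher and 7.82%, 31.6% and 12.6% lower at the 3 times. After GC centring, 3, 1 and 2 of these markers were higher and 1, 1 and 2 lower. As deposited, the log2 ratios at 24 hr were 2.63 for Cd14, 1.67 for Lyz2, 0.44 for Tyrobp, -0.96 for Cd68, -1.25 for Csf1r and -1.53 for Fcer1g. The defining markers Ptprc and Csf1r were at 0.156 and 3.44 RPKM untreated and at 0.194 and 1.45 at 24 hr, and the leukocyte β chain Itgb2 was at 0.425 and 0.697. With Lyz2 the sum was highest at 1.5 and 24 hr, as were Itgb1, Itgav and Itga4. Without Lyz2 the sum was also highest at 1.5 hr and lowest at 6 hr, and at 24 hr it lay below the untreated one. At 24 hr, Itgb1, Itgav and Itga4 were at least 2-fold higher as deposited, with GC-centred log2 ratios of 0.82, 0.51 and 0.61. The part of leukocyte transcripts in the member values was not tested. In bulk RNA, fewer cells that express a gene and less RNA per cell cannot be told apart.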

How the data were processed

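RNA-seq was made from polyA RNA as directional paired-end libraries. The authors mapped the reads with TopHat to mm9 and computed RPKM per RefSeq transcript with their own script, and these deposited RPKM values carry a scale of their own. Over 5167 values shared with the study's supplementary list, the median ratio to its RPKM was 85.6 (83.4 to 89.9 in single libraries), and all values were divided by 85.6. The authors mapped ChIP-seq reads with Bowtie and called H3K4me3 peaks with MACS on 1 library against input, without pooling (MACS version not given in the sources used here). The deposited peak list holds counts of tags, a score made from the p-value, fold enrichment as a ratio and an FDR in percent. The deposited signal column, the mean tag coverage per base, and the score were not used.

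From these values, log2 ratios to the untreated library were computed without a pseudocount, and genes past 2-fold in each direction were counted. The background was coding genes with an average RPKM above 1. GC content of transcripts came from the GENCODE annotation on mm9, was known for 98.1% of these genes, and ratios were centred on the median of 20 bins. A peak within 1 kb of an annotated start was counted. The alternatives were scaling to the sum, to a median of ratios or to a trimmed mean of log ratios (30% of ratios and 5% of levels left out on each side), a pseudocount of 1 RPKM, each column alone, the mean over a gene's entries, other fold thresholds, other peak windows and a peak enrichment of at least 40. The subtraction of the median of coding genes was added after seeing the data. All members were named, and of each other list the 3 genes above 1 RPKM with the largest difference from the median of coding genes, with Fn1 and Tln1 always. The markers, Nfkbia and Itgb2 were named as checks. The members and lists were chosen with earlier results of these data known. No test was run, since each time is 1 library. The calls were tested on simulated data. Python 3.11.15, numpy 2.4.6 and pandas 2.3.3 were used.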

Additional observations from a re-analysis of the deposited data

Results flagged for a closer look

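In 5 of the 10 subunits, the deposited values were above the untreated library at one time and below it at another in both columns. The share of all coding genes with such a turn was not computed, so this count cannot be read as unusual or usual. With 1 library per time, the differences between times were not tested. For Itga1 the log2 ratio at 1.5 hr exceeded that at 6 hr by 2.50 and that at 24 hr by 1.07. For Itga5 the same differences were 0.824 and 0.759. The ratio at 1.5 hr exceeded that at 6 hr by 2.28 in Itga6, by 1.27 in Itgb3 and by 2.16 in Itgb5. In Itgb3 the ratio at 6 hr minus that at 24 hr was -1.06. Coding genes as a whole had median log2 ratios of 0.45, -0.74 and 0.11 in time order. After GC centring, 3 of these 8 pairs of times still had opposite directions, namely Itga5 (0.43 at 1.5 hr and -0.13 at 24 hr), Itga6 (0.11 at 1.5 hr and -0.68 at 6 hr) and Itgb5 (0.97 at 1.5 hr and -0.55 at 6 hr).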

How the results depend on the processing

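No ratio past 2-fold changed sign under the alternatives, but smaller ratios did, such as those of Itga1, Itga5 and Itgb3 at 1.5 hr. Of the members at least 2-fold higher at 1.5 hr (4 as deposited), 1 was left after GC centring and 2 with a pseudocount of 1 RPKM, with a 3-fold threshold or among members above 1 RPKM. The 1 lower at 1.5 hr became 0 with the pseudocount, the column R2 alone or a 3-fold threshold. At 6 hr, 0 higher became 3 after scaling to the sum or the median of ratios and 2 with the trimmed mean or the coding median subtracted, and 5 lower became 1 under these 4 scalings and at 3-fold, and 2 after GC centring, with the pseudocount or above 1 RPKM. At 24 hr, 3 higher became 0 after GC centring and 1 with the pseudocount or at 3-fold, and 1 lower became 2 with the median of ratios, the trimmed mean or the coding median subtracted and 3 at 1.5-fold. The median log2 ratio at 1.5 hr (0.82) was 0.57 scaled to the sum, 0.39 by the median of ratios, 0.44 by the trimmed mean, 0.10 GC-centred, 0.27 with the pseudocount and 0.37 with the coding median subtracted. At 6 hr (-1.09) these were -0.26, -0.29, -0.35, -0.37, -0.24 and -0.35. At 24 hr (0.01) the GC-centred median was -0.12 and that with the coding median subtracted -0.10. With peaks of at least 40-fold enrichment, 4 of 7 genes kept a peak. The cause of these shifts was not tested. No paired analysis was possible because each group is 1 library.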

Other observations

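Of the 16 other integrin subunits, 15 had an average RPKM at or below 1, and 14 of these had a value above 0 in the untreated library. As deposited, 4, 2 and 3 of the 14 were at least 2-fold higher and 5, 5 and 6 lower at 1.5, 6 and 24 hr. After GC centring, 3, 2 and 3 were higher and 5, 2 and 7 lower. The shares of coding genes given above cover only genes with an average RPKM above 1. No share for genes this low was computed, so these counts cannot be read as unusual or usual. Itga2, a collagen receptor chain that pairs with β1, had 0.00773 RPKM untreated and 0.131, 0.0334 and 0.102 later, with GC-centred log2 ratios of 2.89, 2.49 and 2.98. Itga10, another collagen receptor chain, had 0.524 RPKM untreated, 0.129 at 1.5 hr, 0.302 at 6 hr and 0.155 at 24 hr. Itgb4, the partner of α6 in hemidesmosomes, had 0.300, 0.0770, 0.180 and 0.0683 RPKM. Itgb7, the other partner of α4, had 0.330, 0.0611, 0.142 and 0.0441 RPKM. After GC centring, the log2 ratios of Itga10, Itgb4 and Itgb7 were -2.36, -1.55 and -2.17 at 1.5 hr. They were 0.05, 0.10 and -0.31 at 6 hr, and -1.72, -1.50 and -2.45 at 24 hr. These genes were named after their values were seen, no test was possible, and the counting error at such levels is unknown.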
